A study of Mus musculus with 5 samples.

Results

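In Th9 cells, 556 promoter regions carried both a BATF and a PU.1 summit. They are the BATF summits on chromosomes 1 to 19 and X that lay within 1000 bp of an annotated transcript start, had a PU.1 summit within 500 bp, and had no summit of the Input or of the goat or rabbit Ig controls within 500 bp. They made up 13.7% of the 4060 BATF summits (95% interval 12.7 to 14.8, exact Clopper-Pearson, as for all intervals here), and the 5 lists together held 38651 summits. The regions were chosen by the deposited summit positions of all 5 lists, so the presence of both factors, the nearness to a start and the absence of control summits are the rule and not findings. A summit is the base where the fragments recovered by an antibody pile up highest, and its score is taken as −log10 of the peak caller's q-value for that peak within its own list.

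The study followed the control of the Th9 programme by IRF8 and its partners, and asked where PU.1 and BATF sit in the genome of Th9 cells. Naive CD4 T cells came from spleen and lymph nodes of WT C57/Bl6j mice aged 7 weeks. They were put on plates coated with antibodies to CD3 and CD28, with IL-4 (20 ng/ml), TGF-β (2 ng/ml) and an antibody that blocks IFNγ, for 24 h by the study's description of the ChIP-Seq and for a few hours according to the labels. The same cells and treatment stand behind all 5 libraries, which were chromatin precipitated for PU.1, for BATF, with goat Ig or with rabbit Ig, and unprecipitated Input. Each had 1 library and no replicate, the read depth is unknown, and no test between libraries was possible, so intervals cover counting error only and neighbouring summits are not independent. Both specific antibodies came from rabbits, so that rabbit Ig is the control of the same species. Of the 4060 BATF summits, 3947 lay on these chromosomes, beside 8759 of PU.1, 24853 of Input, 157 of goat Ig and 160 of rabbit Ig. A summit list does not measure expression, so the identity of the cells was not checked against marker genes.

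PU.1, encoded by Spi1, is an ETS-family factor that binds purine-rich DNA around a GGAA core and is needed for IL-9 production by Th9 cells. BATF is an AP-1 family protein that binds DNA as a partner of JUN proteins at AP-1 motifs and, with IRF4 or IRF8, at composite AP-1 and IRF motifs. Many mammalian promoters lie in CpG islands, stretches rich in GC and in unmethylated CpG dinucleotides that often drive broadly expressed genes and are bound by Sp1-type factors at GC boxes.

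The sequences under the summits were CpG-dense. The 5 shown first are the regions with the highest BATF score among the 130 whose bases up to 50 bp on either side of the BATF summit overlapped no annotated exon. They are given on the plus strand of GRCm38 with every CpG in capitals.
Hook3, chr8:26119235-26119335: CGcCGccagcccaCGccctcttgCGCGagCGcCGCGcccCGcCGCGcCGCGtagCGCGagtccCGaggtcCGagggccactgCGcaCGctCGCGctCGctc
Ran, chr5:129019955-129020055: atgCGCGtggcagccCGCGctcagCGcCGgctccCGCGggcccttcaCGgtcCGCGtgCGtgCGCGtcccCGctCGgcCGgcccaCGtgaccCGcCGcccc
Rnf139, chr15:58888882-58888982: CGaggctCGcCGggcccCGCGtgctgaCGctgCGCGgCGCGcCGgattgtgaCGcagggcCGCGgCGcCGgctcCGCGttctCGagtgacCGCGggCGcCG
Nfkbia, chr12:55492034-55492134: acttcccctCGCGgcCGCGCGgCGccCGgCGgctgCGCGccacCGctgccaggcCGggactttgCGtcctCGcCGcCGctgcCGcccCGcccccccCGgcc
Epb41l4b, chr4:57143470-57143570: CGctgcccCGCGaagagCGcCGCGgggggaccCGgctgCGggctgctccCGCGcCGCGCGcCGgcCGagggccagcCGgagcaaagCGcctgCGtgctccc
These stretches held 22 CpG at Hook3, 20 at Ran, 23 at Rnf139, 19 at Nfkbia and 18 at Epb41l4b. Hook3 encodes a microtubule adaptor, Ran the GTPase of nuclear transport, Rnf139 a ubiquitin ligase of the endoplasmic reticulum, Nfkbia the NF-κB inhibitor IκBα, and Epb41l4b a protein of the band 4.1 family. All 5 summits lay upstream of the nearest start, at distances between 61 and 297 bp.

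A small minority looked different. Among the 556 regions, 12 had under 60% GC within 100 bp on either side of the summit, and 2 of them are shown to make the contrast visible, with CpG again in capitals.
Mir206, chr1:20678559-20678659: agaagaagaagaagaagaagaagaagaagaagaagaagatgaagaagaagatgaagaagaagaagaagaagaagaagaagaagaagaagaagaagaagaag
Gm29327, chr7:70250418-70250518: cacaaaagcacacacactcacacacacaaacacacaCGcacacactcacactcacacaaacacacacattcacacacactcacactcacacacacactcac
The first is a run of GAA-type triplets upstream of the microRNA gene Mir206, and the second a CA-rich run 692 bp upstream of the non-coding gene Gm29327.

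The regions sat close to the start. The BATF summit lay 29 bp downstream of the nearest start in the median (quartiles −56 and 158.25 bp, negative meaning upstream), and the nearest PU.1 summit at 34.5 bp (quartiles −66 and 180.25 bp). Regardless of side, the median distance from the BATF summit to the start was 103.5 bp. Within the 1000 bp that the rule allowed, 267 regions (48.0%, 43.8 to 52.3) lay within 100 bp of a start and 523 (94.1%, 91.8 to 95.9) within 500 bp. BATF lay upstream of the start in 231 regions (41.5%, 37.4 to 45.8) and PU.1 in 230 (41.4%, 37.2 to 45.6). The summits of the promoters with PU.1 alone were spread more widely, with 254 of 675 (37.6%, 34.0 to 41.4) within 100 bp of a start, and for those with BATF alone the share was close, at 262 of 557 (47.0%, 42.8 to 51.3). Input summits at promoters, of which 71 of 618 (11.5%, 9.08 to 14.3) were that close, lay mostly farther out.

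**Figure D1:**
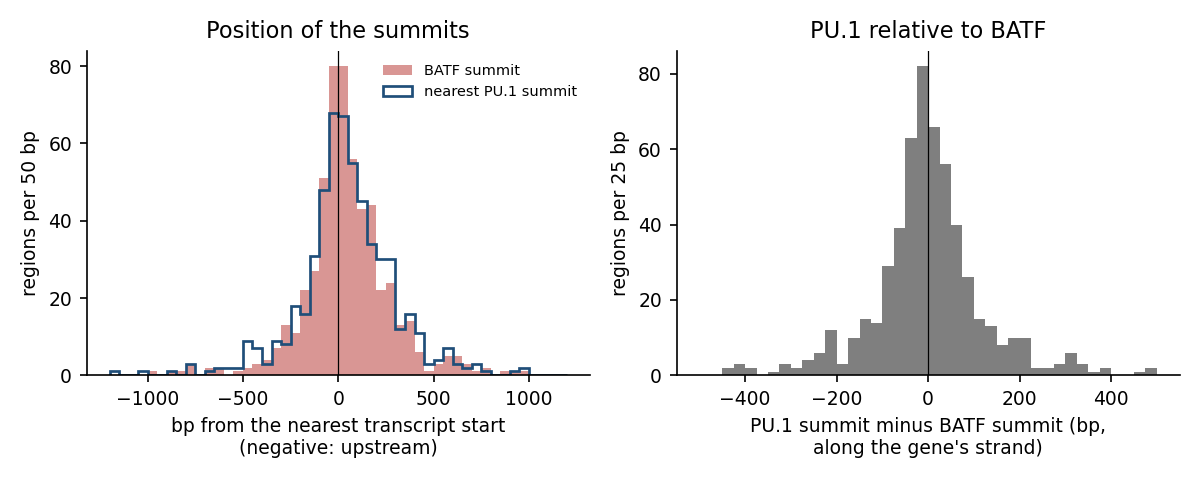
Left, number of regions per 50 bp by the distance of the BATF summit (filled) and of the nearest PU.1 summit (line) from the nearest transcript start, in bp along the gene, negative upstream. Right, number of regions per 25 bp by the position of the PU.1 summit relative to the BATF summit. Both summits pile up at the start, with medians of 29 and 34.5 bp, and the right-hand distribution is centred near 0 with a median of −3 bp.

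Most regions belonged to protein-coding genes. A start of a protein-coding gene lay within 1000 bp of 528 regions (95%, 92.8 to 96.6). The share was close for promoters with BATF alone (94.6%, 92.4 to 96.3) and lower for those with PU.1 alone (86.1%, 83.2 to 88.6). In the regions, the gene of the nearest start was protein-coding for 509, a lincRNA for 11, an antisense RNA for 8 and a microRNA for 6. By the annotation, 234 summits (42.1%) fell in an untranslated exon, 113 (20.3%) in a coding exon, 106 (19.1%) in an intron, 85 (15.3%) between genes and 18 (3.24%) in an exon of a non-coding transcript. The interval for coding exons was 17.1 to 23.9%, above that of promoters with BATF alone (12.2%, 9.61 to 15.2) and overlapping that of promoters with PU.1 alone (15.6%, 12.9 to 18.5). Starts of genes on opposite strands, pointing away from each other, stood at 94 regions (16.9%, 13.9 to 20.3). This arrangement held for 14.3% of all 93145 protein-coding starts. These are the distinct starts of all transcripts of protein-coding genes, whatever the type of the transcript, so a gene can have several. The arrangement held for 12.2% (9.61 to 15.2) of the promoters with BATF alone and for 11.4% (9.11 to 14.1) of those with PU.1 alone. The interval of the regions overlaps those of the promoters with BATF alone and with PU.1 alone. Input summits at promoters had a lower share, 4.85% (3.3 to 6.86), and no difference was tested.

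The BATF and PU.1 summits nearly coincided. Their median distance was 53 bp (quartiles 23 and 111 bp). They lay within 50 bp of each other in 267 regions (48.0%, 43.8 to 52.3), within 100 bp in 72.1% (68.2 to 75.8) and more than 250 bp apart in 37 (6.65%, 4.73 to 9.06). At the 470 distal places that BATF and PU.1 shared away from controls, the median distance was 61.5 bp and 314 pairs (66.8%, 62.3 to 71.1) were within 100 bp, so the intervals overlap. PU.1 lay on either side, downstream of BATF in 264 regions, upstream in 290 and on the same base in 2. The same-base regions were at Sdk1, which encodes a cell adhesion protein, 15 bp upstream of its start with a BATF score of 6.28 and a PU.1 score of 5.32, and at the antisense RNA Gm47936 beside Cnnm1, with scores of 2.67 and 2.69. The 556 regions had 543 distinct nearest PU.1 summits, 26 of them shared theirs with another region, and they formed 540 places more than 1000 bp apart.

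In these lists, BATF summits at starts had PU.1 nearby more often than distal ones. Away from controls, 556 of 1113 BATF summits at starts (50%, 47.0 to 52.9) had PU.1 within 500 bp, against 470 of 1606 distal ones (29.3%, 27.0 to 31.6). Both shares come from 1 BATF and 1 PU.1 library, the 556 are the regions that the rule chose, and no difference was tested. How often PU.1 lies at starts or at distal places regardless of BATF was not set beside them. The rule had left out 57 further summits because of a control nearby. Among the regions kept, which had none within 500 bp by the rule, 23 had a control summit within 10000 bp. The regions nearest to each limit on the inside had a start at 980 bp, a PU.1 summit at 499 bp and a control at 813 bp, and the nearest BATF summits on the outside had them at 1029, 531 and 426 bp.

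Scores were moderate and only loosely related between the factors. The median BATF score was 5.92 (quartiles 4.55 and 7.90, range 1.5 to 140.9) and the median PU.1 score 4.62 (quartiles 3.61 and 6.09, range 1.44 to 148.5), beside medians of 4.74 and 4.13 over the whole lists. Promoters with BATF alone had a median of 5.16, promoters with PU.1 alone 4.26, and the distal shared places 4.21 for BATF and 4.26 for PU.1. Both scores exceeded the median of their list in 260 regions (46.8%, 42.6 to 51). Across the 556 regions the Spearman rho of the scores was 0.19, a description of values from 1 library each at places that share their base composition. The regions were split by BATF score into 4 sets of 139. PU.1 lay within 100 bp in 77.7% of the highest set (scores from 7.90 to 140.93), in 79.9% and 71.2% of the next, and in 59.7% of the lowest (1.5 to 4.55). The median PU.1 score was 5.42 in the highest set and 4.26 in the lowest.

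**Figure D2:**
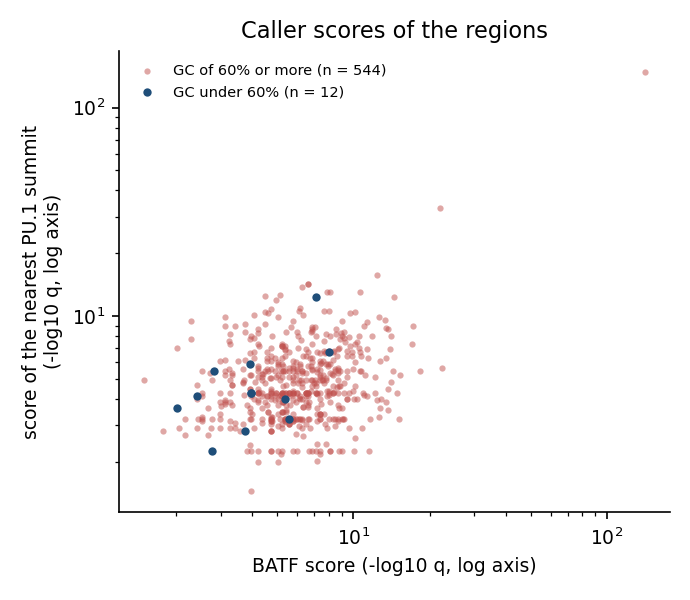
Score of the nearest PU.1 summit against the BATF score of each region, both as −log10 of the q-value on log axes, with the 544 regions of at least 60% GC in red and the 12 below in blue. Points form a broad cloud with a rho of 0.19, and the region at Gm26917 stands apart at 140.93 and 148.5.

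The highest score of both factors fell on the same place, at the non-coding gene Gm26917 (BATF 140.93, PU.1 148.5, summits 12 bp apart, chr17:39845655-39845855). Here 3 regions lie at Gm26917 and the adjoining Gm42418, a locus known to overlap a ribosomal RNA gene repeat, with further BATF scores of 22.01 at Gm42418 and 6.28. Their nearest control summits were 813, 1464 and 1976 bp away, the first being closer than at any region elsewhere (1158 bp), and reads from repeated copies cannot be told apart. Outside this locus the highest scores were 22.39 for BATF and 15.72 for PU.1.

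Among the 10 highest BATF scores, the 8 outside this locus were led by Ptk2, the focal adhesion kinase. It had a BATF score of 22.39 and a PU.1 score of 5.60. Its summits lay 30 bp apart at the start, BATF 7 bp upstream and PU.1 23 bp downstream. Hook3 followed with 18.24, 61 bp upstream, then Ran with 17.18 and Rnf139 with 17.03, whose sequences are shown above. Dusp8, a dual-specificity phosphatase for MAP kinases, had 15.29, and its summit was 118 bp downstream. Fam168b had 15.18, the uncharacterised Gm10209 beside Kbtbd2, a cullin 3 ubiquitin ligase adaptor, had 14.89, and Agpat3, an acyltransferase of phospholipid synthesis, had 14.44. At Agpat3 the PU.1 summit, with a score of 12.37, was 1 bp away. PU.1 scores in these 8 regions ran from 3.19 at Fam168b to 12.37 at Agpat3.

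Among the 10 highest PU.1 scores, the 8 outside the Gm26917 locus were led by 3110070M22Rik, which shares its promoter with Tmem267 on the opposite strand, with a PU.1 score of 15.72 and a BATF score of 12.45, 7 bp apart. Tada2a, an adaptor of histone acetyltransferase complexes, had a PU.1 score of 14.26, and Dazap1, an RNA-binding protein, had 14.24. The paralogous forkhead factors Foxk2 and Foxk1 had 13.81 and 13.08. Mier1, a corepressor that recruits histone deacetylases, and the kinase gene Hipk2 had 13.08 each, and Dock9, an exchange factor for Cdc42, had 12.60. Their BATF scores ran from 5.16 at Dock9 to 12.45 at 3110070M22Rik. Apart from the Gm26917 and Gm42418 regions, no region was in the first 10 of both factors.

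GC content was what the regions most plainly had in common. Within 100 bp on either side of the BATF summit it was 81.1% in the median (quartiles 79.6 and 82.6%), and 533 regions (95.9%) had at least 75%. A window held a median of 34 CpG, at 1.06 times the number its C and G content would give. Over all 93145 protein-coding starts the median GC was 57.2%, and 7.58% of them had at least 75%. Promoters with BATF alone had a median of 80.6% (88.0% with at least 75%) and those with PU.1 alone 78.1% (70.5%). The distal places shared by both factors had 41.8% (2.98%) and Input summits at promoters 36.8% (9.22%), so neither the distal shared places nor the Input summits had this composition.

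**Figure D3:**
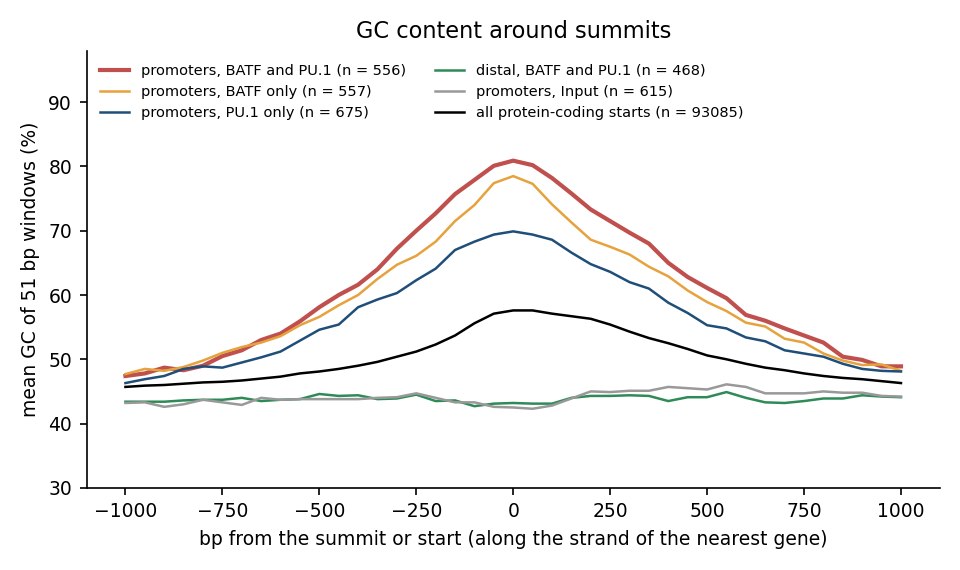
Mean GC of 51 bp windows in steps of 50 bp up to 1000 bp on either side of the summit, or of the start for all protein-coding starts. The regions with both factors peak at 80.9% and fall to 47.4 and 48.9% at the ends, all starts peak at 57.6%, and the distal shared and the Input summits stay flat. Places with unknown bases were left out.

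The summit lay closer to the local GC maximum, at a median of 53 bp, than to the start, at 103.5 bp. The windows on the nearest starts had a median of 79.1%, and the window on the summit had more GC in 356 regions, less in 157 and the same in 43, with a median difference of 1.5 percentage points. Among the 289 regions more than 100 bp from their start, it had more in 229. The window of highest GC within 1000 bp lay within 100 bp of the summit for 379 regions (68.2%). Where windows tied for the highest GC, the one nearest to the summit was taken, which can only shorten this distance.

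Read from the starts, the share with a region rose with GC. A region counted at every start within 1000 bp, and a gene can have several starts. Neighbouring starts are therefore not independent, which the intervals do not take into account. Of the starts under 40% GC, 0.129% (0.062 to 0.237) had a region within 1000 bp, which rose to 3.04% (2.69 to 3.42) at 70 to 75%, to 8.79% (8.03 to 9.60) at 75 to 80% and to 22.8% (21 to 24.7) at 80% or more. Of the 1989 starts in the last class, 42.0% had any BATF summit and 37.4% any PU.1 summit within that distance. The same starts had an Input summit in 1.11%, a goat Ig summit in 0.101% and a rabbit Ig summit in 0.0%, from lists of very different length. The part of base composition itself in the calls was not tested.

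**Figure D4:**
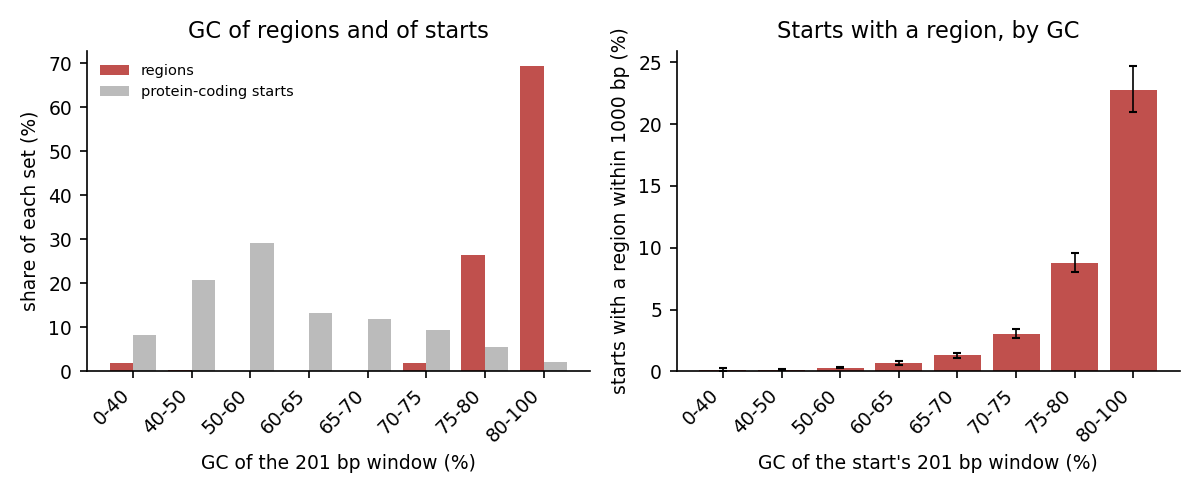
Left, share of the 556 regions (red) and of all protein-coding starts (grey) in each class of GC within 100 bp on either side. Right, share of the starts of each class with a region within 1000 bp, with exact 95% intervals. Of the regions, 69.4% had 80% GC or more against 2.14% of the starts, and 22.8% of the starts in that class had a region.

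The 12 regions under 60% GC ran from 29.9 to 45.3%, while the other 544 started at 69.2%. All 12 were more than 50% masked as repeats in the reference, 11 were simple repeats, and 10 lay upstream of the nearest start, at a median distance of 525.5 bp against 102 bp for the others. Their median BATF score was 3.93 against 6.02, and 4 of them had a protein-coding start within 1000 bp. The one closest to its start was at Eif2a, a translation initiation factor, 169 bp downstream and with 32.8% GC.

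The classical motifs of both factors were rare near the BATF summit. Each motif was searched as an exact string on both strands within 100 bp on either side of the BATF summit. The nearest PU.1 summit lay within that distance in 72.1% of the regions. The 7062 protein-coding starts with at least 75% GC had a median GC of 78.1%, below the 81.1% of the regions. They are therefore not matched to the regions in GC. The AP-1 motif, TGACTCA, occurred in 6 regions (1.08%, 0.397 to 2.33), against 2.72% (2.61 to 2.82) of all protein-coding starts and 1.03% (0.811 to 1.3) of the 7062 starts with at least 75% GC. All 7 sites are shown with 10 bases on either side and the motif in capitals.
Phf20l1, chr15:66577507-66577533: gcgtaccacgTGACTCAacccagcccg
Nsmaf, chr4:6454200-6454226: ggcgacgccgTGACTCAggcccggagg
Eif5, chr12:111538665-111538691: gcgccgtggcTGAGTCAggcccggggc
Eif5, chr12:111538689-111538715: ggcgcgtttgTGACTCAgggaggccgc
Satb1, chr17:51813104-51813130: aaccaagagtTGACTCAtcccggccgc
Six2, chr17:85688081-85688107: gagcgactccTGAGTCAcaacgatccg
Ap5b1, chr19:5568063-5568089: ccgcggcagcTGACTCAagcggtgaga
Eif5, a translation initiation factor, had 2 sites, with centres 11 and 35 bp from the summit, and at Satb1, a chromatin organiser of T cell development, the summit lay within the site, 3 bp from its centre. The others belonged to Phf20l1, a methyl-lysine reader, Nsmaf, an adaptor of the TNF receptor, Six2, a homeobox factor, and Ap5b1, an adaptor protein subunit. Their sites were centred farther from the BATF summit, at 75 bp for Phf20l1, 40 for Nsmaf, 58 for Six2 and 90 for Ap5b1. The PU.1 summit lay between 6 bp (Eif5) and 113 bp (Six2) from the BATF summit. BATF scores of these 6 regions ran from 4.37 at Ap5b1 to 8.04 at Phf20l1, within the range of the rest.

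The cAMP response element TGACGTCA, to which proteins of the ATF and CREB group bind, was in 5 regions (0.899%, 0.293 to 2.09), against 1.44% of all starts and 1.53% (1.26 to 1.84) of the GC-rich ones. Its sites are given in the same way.
Dnttip1, chr2:164745979-164746006: ggcgctcccgTGACGTCAcggcgccgct
Pmepa1, chr2:173276523-173276550: gcagacggtcTGACGTCAgcgctagacg
Pdzd8, chr19:59345871-59345898: gagcggcgcgTGACGTCAgagcgtgcgc
Bend6, chr1:33907837-33907864: ccgcagcccgTGACGTCAcccaccgagc
Pde7a, chr3:19311403-19311430: gccgccaccgTGACGTCAcgacgccgcg
At Bend6 the summit lay within the motif, and at Pmepa1, an inhibitor of TGF-β signalling, 33 bp from its centre. The centres at Pdzd8, Pde7a and Dnttip1 were 53, 78 and 82 bp from the summit. The half-site TGACG, which is contained in the full element, was in 86 regions (15.5%, 12.6 to 18.7), against 21% (20.1 to 22.0) of the GC-rich starts.

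The PU.1 motif GAGGAAGT was in 1 region (0.180%, 0.00455 to 0.998), against 1.96% of all and 0.595% (0.429 to 0.803) of the GC-rich starts. It stood at Spire2, an actin nucleator.
Spire2, chr8:123332839-123332866: gctgtccctgGAGGAAGTgctgaaggtg
The BATF and PU.1 summits of Spire2 were 3 bp apart, with scores of 10.13 and 6.01, and the centre of the motif was 84 bp from the BATF summit. The general ETS motif CCGGAAGT was in 10 regions (1.80%, 0.866 to 3.28), against 3.55% of all and 2.48% (2.13 to 2.87) of the GC-rich starts. Around the nearest PU.1 summit instead, the ETS share was 1.26%, and the share of the PU.1 motif there is not given. The IRF motif GAAANNGAAA was in 3 regions and the composite GGAANNGAAA in 2, at Strbp and Eif2a. A missing string says only that these letters were not in the window.

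GC-rich strings were common. The GC box GGGCGG was in 450 regions (80.9%, 77.4 to 84.1), above the 32.7% of all starts and below the 89.1% (88.4 to 89.8) of the GC-rich ones. The CCAAT box, CCAAT, was in 32 (5.76%, 3.97 to 8.03), against 23.9% and 10.2% (9.46 to 10.9). The triplet run CGGCGGCGG, searched after the sequences had been seen, was in 179 (32.2%, 28.3 to 36.3), against 4.28% of all and 27.8% (26.8 to 28.9) of the GC-rich starts. The T-rich motif that the study derived from its IRF8 libraries was in 8 regions (1.44%, 0.623 to 2.82), all of them among the 12 GC-poor ones. It was in 59.6% (55.0 to 64.0) of the distal shared places, in 6.10% (4.26 to 8.43) of promoters with BATF alone, in 14.8% (12.2 to 17.7) of those with PU.1 alone, in 12.1% (9.67 to 15) of Input summits at promoters and in 1.81% of all starts. Simple repeats made up 80.6% of the distal shared places, and 93.0% of these places were more than 50% masked, and the part of repeats in this share was not tested.

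**Figure D5:**
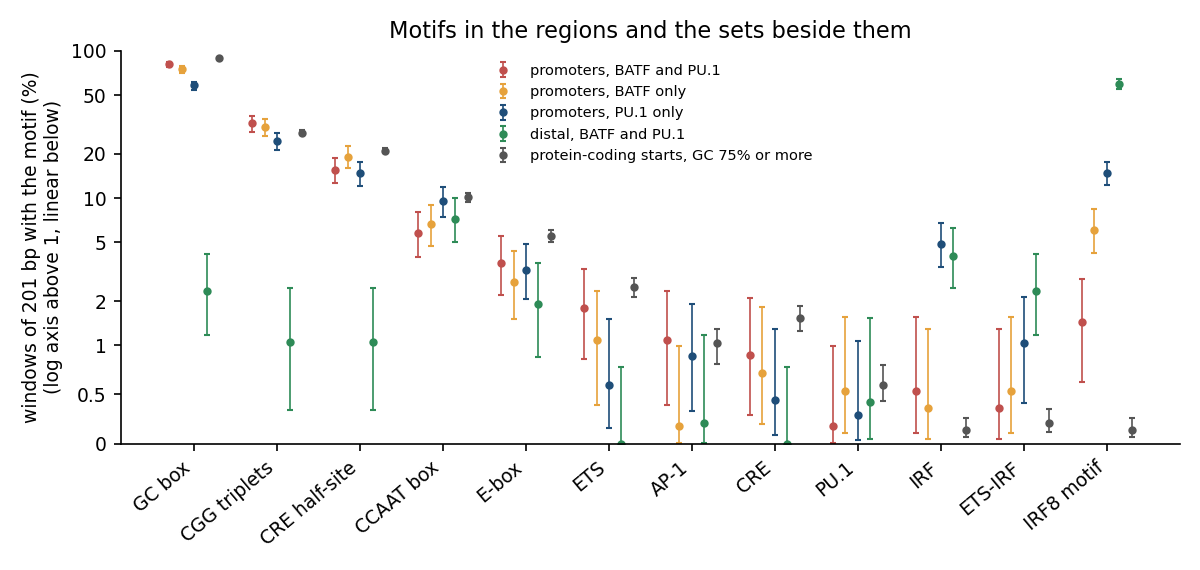
Share of windows of 100 bp on either side with each motif, with exact 95% intervals, on an axis that is linear up to 1% and logarithmic above, for the regions, 3 other sets of summits and the starts with at least 75% GC. The regions (red) lie at 80.9% for the GC box, at 1.08% for AP-1 and at 0.180% for PU.1, and the distal shared places at 59.6% for the IRF8 motif.

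Seen by gene, the regions reached 555 of the 21755 protein-coding genes (2.55%) and 675 of the 53843 annotated genes (1.25%). The share was 12.5% (438 of 3503) among protein-coding genes with a start of at least 75% GC and 0.641% (117 of 18252) among the others. Counts for gene groups below are given beside the number of their genes with such a start, called GC-rich. The X chromosome had 2 regions, at 2 of 948 protein-coding genes (0.211%), and 4.75% of its genes had a start that rich, against 2.66% and 16.6% on the autosomes.

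None of the 52 T helper cytokine and receptor genes had a region, Il9, Il21 and Il4 included, and 7 of the 52 had a GC-rich start. The paper itself reported BATF and PU.1 on a conserved non-coding sequence of the Il9 and Il21 promoters, by ChIP-Seq and conventional ChIP. It placed the IRF8 peak at Il9 less than 1000 bp upstream, within the distance that the rule allows. The IRF8 peak at Il21 was placed more than 1000 bp upstream, farther than the rule allows. Having no region means only that the rule was not met, and which part of it failed was not examined. Of 59 transcription factors of T helper cells, 5 had a region (8.47%). Ikzf1, the lymphoid zinc finger factor Ikaros, had the highest BATF score, 10.7, with PU.1 at 6.46 but 449 bp away, and its summit was 362 bp upstream. That summit lay closer to a start of the non-coding gene Gm11999. Myb had 6.99 with PU.1 at 4.77, 11 bp apart and 142 bp upstream of its start. Satb1 had 6.48 with PU.1 at 4.13, also 11 bp apart, and holds one of the AP-1 sites above. Maf, an activator of Il4 and Il21, had 5.59 with PU.1 at 4.26, 2 bp apart, in its coding exon 723 bp downstream. Tcf7, which encodes TCF-1, had 4.74 with PU.1 at 3.14, 49 bp apart. Although 22 of the 59 genes had a start of at least 75% GC, none of the 5 was among these, while the windows at their summits had 76.1 to 83.1%. Spi1, Batf, Irf4, Irf8, Gata3 and Stat6 had no region.

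Of 38 AP-1 family genes, 3 had a region (7.89%, with 8 GC-rich), beside 2.55% over all protein-coding genes. They were Cebpb (BATF 8.22, PU.1 5.28, in its coding exon 619 bp downstream), Maf, already counted above, and Bach1, a repressor of haem and oxidative stress genes (3.12 and 5.43, 113 bp downstream). Cebpb encodes a protein of the C/EBP family, which this list counted with the AP-1 family. Of 35 ETS and IRF genes, 10 of them GC-rich, the related ETS factors Elf1 (8.71 and 4.26) and Elf2 (3.91 and 4.47) had a region (5.71%). The Elf1 region lay closer to a start of Wbp4, and that of Cebpb closer to one of Tmem189.

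Of 53 T cell receptor signalling genes, 18 of them GC-rich, 4 had a region (7.55%). Nfkbia had the highest BATF score, 14.35, with PU.1 at 5.43 and 133 bp away, 274 bp upstream of its start. Cbl, a ubiquitin ligase for activated receptors, had 10.3 with PU.1 at 3.99, 5 bp apart and 20 bp upstream. Sos1, a Ras exchange factor, had 8.62 with PU.1 at 4.58, and its adaptor Grb2 had 5.40 with PU.1 at 6.46. The receptor and kinase genes Cd3d, Cd3e, Cd3g, Cd4, Lck, Zap70 and Cd28 had none, and neither did any of 12 B cell and myeloid markers, none of which was GC-rich. GC-rich genes made up 37.3% of the T helper factors, 21.1% of the AP-1 family, 28.6% of the ETS and IRF family and 34.0% of T cell receptor signalling, against 16.1% of all protein-coding genes. The shares with a region in these 4 lists stood above the 2.55% over all protein-coding genes and below the 12.5% over GC-rich ones. They rest on 2 to 5 genes each, and no test of a list was made.

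Broadly expressed groups are read beside the same 2.55% over all and 12.5% over GC-rich protein-coding genes, and no difference between groups was tested. Of 91 chromatin regulators, 8 had a region (8.79%), and 36 had a GC-rich start. The highest BATF scores among them were those of Hdac7, a histone deacetylase, with 8.49 and PU.1 4 bp away, of Kdm7a, a histone demethylase, and Smarca5, a nucleosome remodeller, with 7.37 each, and of Chd6, another remodeller, with 6.02. Of 118 genes of ubiquitin enzymes, 7 had one (5.93%, with 48 GC-rich), led by the deubiquitinase Usp24 with 12.68 and the conjugating enzyme Ube2j1 with 10.67, followed by Otud7a with 7.95 and Ube2k with 7.18. The Ube2k summit lay closer to a start of Smim14. Usp6nl, counted by its name, encodes a GTPase-activating protein for a Rab. No region was found at 80 cytosolic and 78 mitochondrial ribosomal protein genes, of which 2 and 4 had a GC-rich start, or at 49 proteasome genes, of which none had.

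The remaining groups ran from 0 to 5.63%, beside the 2.55% over all protein-coding genes. Of 71 translation factor genes, 4 had a region (5.63%, with 12 GC-rich), led by Eif5 with 6.81 and by Eif2ak3, a stress kinase counted by its name, with 5.59, then Eif4e2 with 4.74 and Eif2a with 3.94. Of 229 vesicle transport genes, 7 had one (3.06%, with 62 GC-rich), led by Rab11fip4 with 9.01 and Rab6b with 8.28. Of 140 replication and cell cycle genes, 5 had one (3.57%, with 19 GC-rich), led by Cdc42bpb with 9.87, a Cdc42 effector counted by its name, and Cdc34, a ubiquitin-conjugating enzyme of the G1 to S transition, with 8.04. Of 462 zinc finger genes, 11 had one (2.38%, with 69 GC-rich), led by Zfp664 with 8.28, and of 113 splicing and RNA-binding genes 3 had one (2.65%, with 17 GC-rich), led by Hnrnpa0 with 6.03. The Zfp664 summit lay 809 bp from its start and closer to a start of Ccdc92. Gtf2e2, a subunit of TFIIE, was the 1 gene with a region among 82 of the mediator and RNA polymerase II group, 10 of them GC-rich. None was found at 37 tRNA synthetase genes (3 GC-rich), 52 RNA helicase genes (5) or 67 histone genes (2), nor at 1092 olfactory receptor or 53 keratin genes, none of which was GC-rich.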

How the data were processed

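The authors deposited 1 list of 1 bp summits for each of 5 libraries, with a caller score that was read here as −log10 of the q-value, from the MACS2 style of the names and because no deposited score lies below −log10 of 0.05 (1.3). Their methods name 75 bp paired-end sequencing, mapping on mm10 by Bowtie (Bowtie2 in the submitters' processing notes), conversion with MACS and peak calling with FindPeaks. Caller options, the control used and read depth are not given in the sources used here, so depth is unknown and the threshold could change which summits are listed. The methods give a NextSeq device and the labels a MiSeq.

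Transcript starts came from GENCODE M21 and sequence from GRCm38, with 1-based coordinates. Protein-coding starts were the distinct starts of all transcripts of protein-coding genes, non-coding transcripts of these genes included. GC, CpG and exact motif strings on both strands were counted within 100 bp on either side of each BATF summit. Windows were called simple repeats when over 50% of bases equalled the base 1 to 6 bp before. Promoters with BATF or PU.1 alone and distal shared places, each away from controls, and all Input summits at promoters were set beside the regions. No test was made. The regions and gene lists were chosen with earlier results of these data known. Genes were named for the 10 highest scores of each factor, same-base summits, every gene with a region in the T helper, AP-1, ETS and IRF, T cell receptor and B cell or myeloid lists, and up to 4 of longer lists. The genes of motif sites, of GC-poor windows and of the sequences shown, and the genes counted by name only, were picked for those features. Alternatives covered distances, window size, scores, control exclusion and the annotation. The counting was tested on simulated summits and sequences. Python 3.11.15, numpy 2.4.6, pandas 2.3.3, scipy 1.17.1 and matplotlib 3.10.9 were used.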

Additional observations from a re-analysis of the deposited data

How the results depend on the processing

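Of 42 alternatives for the main values, 37 stayed within the 95% interval of the value, or within 1.5 times a count. With scores above the median of each list, the number of regions was 260 instead of 556 and the median BATF to PU.1 distance 42.0 bp instead of 53.0. That alternative keeps fewer summits by construction. The median GC was 81.2% within 50 bp on either side of the summit and 78.8% within 200 bp, and the motif shares moved with the number of bases searched. Within 50 and 200 bp they were 0.719 and 3.24% for ETS, 0.54 and 1.8% for AP-1, and 0.36 and 1.44% for CRE, and all but the first were inside the interval of the main value. Between 489 and 613 regions were obtained with the other distances to starts or controls and with PU.1 within 200 or 1000 bp (72.1% of the regions met 100 bp), and 547 with PU.1 as the anchor. When only the nearest gene counted, 5 of 22 list counts fell, by 1 gene for ETS and IRF (1 instead of 2), splicing, ubiquitin and replication and by 2 for zinc fingers, and the sum went from 60 to 54. No paired analysis was possible because each antibody had 1 library. Depth per library is unknown, so a missing summit cannot be told from shallow sequencing.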
